A study of Rattus norvegicus with 36 samples.

Results

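Sora and Nint, 2 multi-kinase inhibitors, were compared with each other in rat lung slices that had all been given TGFb. The comparison rests on 12 of the 36 libraries of the series, chosen by their titles: 6 slices with TGFb and Sora and 6 with TGFb and Nint, all at the labelled time 72. The other groups serve as context, and each also holds 6 libraries. They are slices with TGFb and Pirf at 72, TGFb alone at 72, untreated slices at 72 and untreated slices at 0. Precision-cut lung slices are thin sections of living lung that keep the cells of the organ together in culture, and RNA was sequenced from whole slices. The series was set up to characterize the slices for work on anti-fibrotic drugs. Sora, Nint and Pirf are read as sorafenib, nintedanib and pirfenidone from knowledge of the study. The labels give no dose, no solvent, no unit of time and no strain, sex or age of the rats. It is thus not known whether Sora and Nint were given at matched doses, and each difference below belongs to the treatments as they were applied. Nothing in the labels ties a replicate to an animal, so p-values measure the spread between these libraries, which may be technical.

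TGFb is a growth factor that drives fibroblasts towards myofibroblasts and the deposition of collagen and other matrix, and it is widely used to set off a fibrosis-like state in lung tissue. Nintedanib, an indolinone, blocks the receptors for platelet-derived, fibroblast and vascular endothelial growth factors and is used to treat idiopathic pulmonary fibrosis. Sorafenib, a diaryl urea used against cancer, blocks RAF kinases in the pathway from RAS to ERK and also the receptors for vascular endothelial and platelet-derived growth factors. Pirfenidone is an anti-fibrotic drug that is not known as a kinase inhibitor.

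The deposited counts are given by Ensembl gene ID only. The gene table at hand carries no Ensembl ID, so that 0 of 15644 IDs in the test found a symbol. Genes are therefore described by ID, by class and by level, the labelled lung tissue was not checked against its markers, and no gene sequence is shown. In bulk slices, fewer cells of a type and less RNA per cell cannot be told apart.

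Total counts were 23660913 to 32932981 in the Sora libraries and 19787218 to 31971861 in the Nint libraries. Means of 27986106 ± 3687341 with Sora and 25260912 ± 4057000 with Nint (SD, n = 6 each) did not differ beyond their spread (two-sided exact permutation p = 0.249, adjusted p = 0.448 over 9 library measures). The scaling factor that edgeR's TMM method gives each library averaged 1.03 ± 0.0435 with Sora and 0.967 ± 0.0275 with Nint (n = 6 each, exact permutation p = 0.0195, adjusted p = 0.0584). Genes that are not in the authors' table of expressed coding genes, called the coding table here, held a share of counts of 11.8% ± 1.26 with Sora and 12.2% ± 1.04 with Nint (n = 6 each, exact permutation p = 0.606, adjusted p = 0.723). Genes with at least 10 counts did differ in number, at 14974.7 ± 74.9 with Sora and 14629.5 ± 224 with Nint (n = 6 each, exact permutation p = 0.00649, adjusted p = 0.0292), counted without setting the libraries to one depth.

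The 12 libraries were first compared without regard to single genes. The first principal component of the 12 held 23.6% of the variance. Its scores were -2.10, 21.0 and 43.6 (lowest, median, highest) with Sora and -30.6, -25.8 and 2.09 with Nint. Means of 22.1 ± 19.0 with Sora and -22.1 ± 12.2 with Nint (n = 6 each) differed (exact permutation p = 0.00433, adjusted p = 0.0292), but the groups overlapped through Sora replicate 3 at -2.10 and Nint replicate 5 at 2.09. The second component held 21.9%, nearly as much as the first, and did not follow the drug (exact permutation p = 0.742, n = 6 each). At its low end lay Sora replicates 5 and 6 at -44.0 and -26.4 and Nint replicate 5 at -39.7. The other 9 libraries scored -13.2 or more, and no wide gap set these 3 apart from them. At the high end Sora replicate 3 scored 43.1, where the next library, Nint replicate 2, scored 19.7. Scores on this component fell with the share of counts outside the coding table. Over the 12 libraries Pearson's r was -0.856 (permutation p = 0.00056, adjusted p = 0.00336 over 6 relations) and Spearman's rho was -0.895 (permutation p = 0.00024). Without the 2 libraries farthest from the median share, r was -0.749 (permutation p = 0.0125). Within Sora r was -0.823 (exact permutation p = 0.0431, adjusted p = 0.0646, n = 6) and within Nint it was -0.917 (exact permutation p = 0.00694, adjusted p = 0.0139, n = 6). Without the 2 farthest libraries of each group of 6, r was -0.507 within Sora (exact permutation p = 0.542) and -0.777 within Nint (exact permutation p = 0.208). So few libraries were then left that the exact test could hardly pass, and these p-values decide nothing. The first component also moved with this share within Nint, where r was 0.798 (exact permutation p = 0.00417, adjusted p = 0.0125, n = 6) and rho 0.943 (exact permutation p = 0.0167). There r was 0.787 without the 2 farthest libraries (exact permutation p = 0.208, again with too few libraries left to decide). Within Sora r was -0.148 for that component (exact permutation p = 0.794, n = 6), and over the 12 libraries it was -0.0395 (permutation p = 0.900). The numbers of calls, the IDs named below and the shares of calls that TGFb or Pirf had changed were also computed without the 3 libraries lowest on the second component. That cut was chosen after seeing the data. Other results were not.

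**Figure D1:**
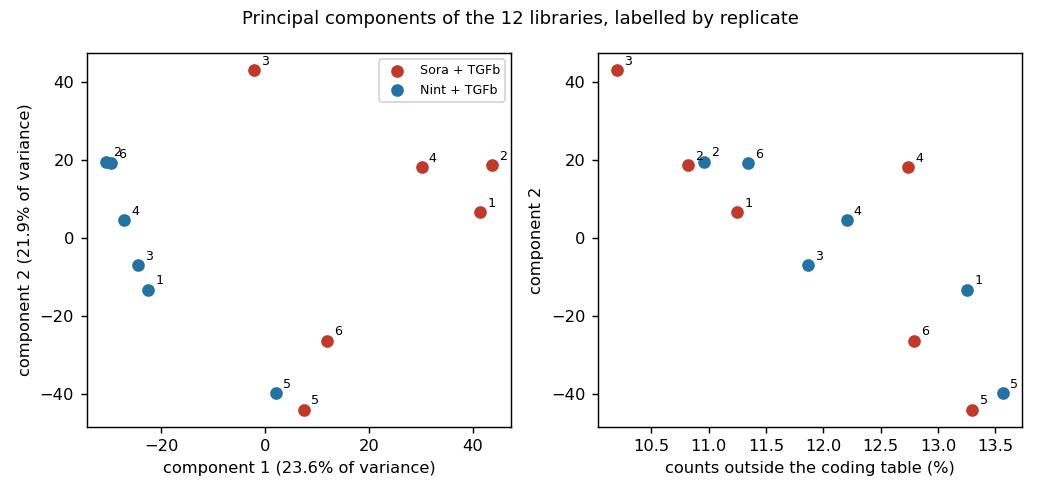
Scores of the 6 Sora (red) and 6 Nint (blue) libraries on the first 2 principal components of log2 CPM (left), and the second component against the percentage of counts outside the coding table (right); numbers are replicate numbers. Sora lies to the right and Nint to the left apart from Sora 3 and Nint 5, whereas Sora 5, Sora 6 and Nint 5 share the low end of the second component, which falls as the share outside the coding table rises.

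Distances between libraries put this in numbers. The measure is the root mean square difference in log2 CPM over all tested genes, averaged over the libraries of a group. Sora libraries lay 0.590 to 0.682 from each other and 0.614 to 0.737 from the Nint libraries. Nint libraries were closer to each other, at 0.521 to 0.635, and lay 0.650 to 0.678 from the Sora libraries. Sora replicates 3, 5 and 6 were slightly nearer to the Nint libraries (0.651, 0.648 and 0.614) than to the other Sora libraries (0.680, 0.682 and 0.624). No Nint library was nearer to Sora than to Nint. From TGFb alone, Sora libraries lay 0.665 to 0.774 and Nint libraries 0.606 to 0.646, where the TGFb-alone libraries lay 0.631 to 0.682 from each other. The median SD of a gene within a group was 0.197 on the log2 scale with Sora, 0.143 with Nint and 0.193 in TGFb alone. The Sora group was thus the more varied of the 2 drug groups, with a spread near that of TGFb alone.

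Gene by gene, 1720 of 15644 genes (11%) were called at an adjusted p under 0.05 in edgeR's quasi-likelihood test with Benjamini-Hochberg adjustment, 1006 higher with Sora (6.43%) and 714 lower (4.56%). Most differences were small. The median log2 fold change, Sora over Nint, was 0.43 among genes called higher and -0.43 among genes called lower. At least 2-fold differences were found in 132 called genes higher with Sora and 72 lower, and at least 4-fold differences in 9 higher and 9 lower. The 6 Sora libraries all lay above, or all below, the 6 Nint libraries for 732 genes (4.68%), of which 406 were higher with Sora (2.6%) and 326 lower (2.08%), and 342 and 250 of these were also called. On total counts without TMM factors 2148 genes were called higher and 432 lower, with the median of all genes at 0.121 in place of 0.0234 on the log2 scale, DESeq2 called 1188 higher and 1165 lower, a test against a fold of 1.2 called 131 higher and 55 lower, a fit without a filter on low counts 681 higher and 452 lower, and one with the TMM factor as a covariate 220 higher and 235 lower. Without any one of Sora replicates 1 to 4 the calls were 570 to 594 higher and 348 to 425 lower. Without Nint replicate 1, 3 or 5 they were 659 to 667 and 398 to 444, and without Nint replicate 4 703 and 456. Without Sora replicate 5 they were 1470 and 1349, and without the 3 libraries lowest on the second component 1580 and 1523.

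**Figure D2:**
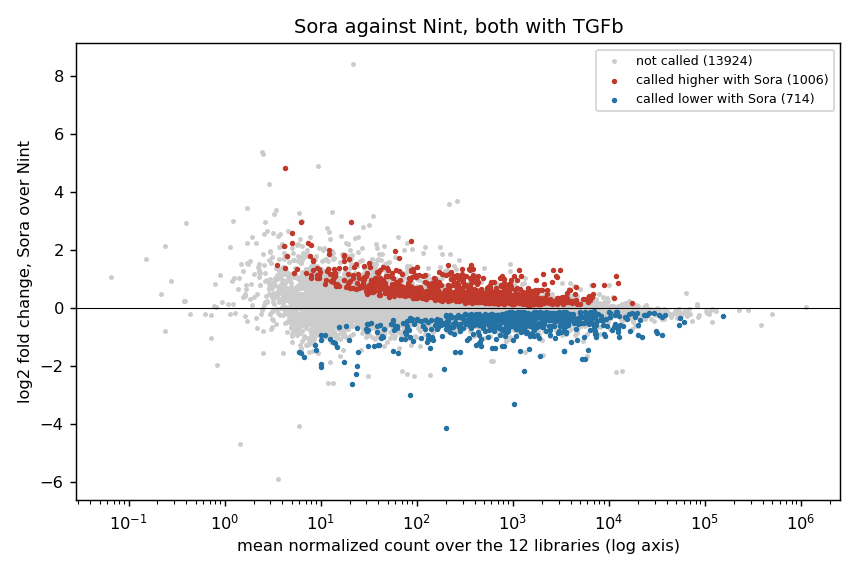
Log2 fold change of Sora over Nint against the mean normalized count of the 12 libraries (log axis), 1 point per tested gene, with 1006 genes called higher with Sora in red, 714 called lower in blue and 13924 not called in grey. Differences of called genes narrow as counts grow, with called lower genes reaching the highest counts.

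What could be resolved depended on the level of the gene. The tested genes were split by rank into 4 level classes of 3911 each, by mean log2 CPM over all 36 libraries. In the lowest class, with a median of 22.5 normalized counts, 181 genes were called higher with Sora and 67 lower, and the 95% interval of a gene's log2 fold change reached 0.62 to either side at the median. In the highest class, with a median of 2310 counts, 211 were higher and 295 lower, and the interval reached 0.15. Calls with Sora were thus mostly higher among the low genes and more often lower among the abundant ones. The number of genes with at least 10 counts was also higher with Sora, as given above, and its part in the calls among low genes was not tested. For 10195 genes (65.2%), called or not, the interval lay wholly within a fold of 1.5 in either direction. For 4456 of the 13924 genes that were not called it reached beyond that fold, and for these the data do not tell whether the drugs act alike. Among genes of the coding table, 957 were higher and 700 lower with Sora (11.4% of 14480 called), and outside it 49 were higher and 14 lower (5.41% of 1164 called). By level, 6.34% of the lowest class and 12.9% of the highest were called. The part of level in the difference between coding and other genes was not tested.

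Genes to name were ordered by fold change among called genes whose groups did not overlap and that had at least 50 normalized counts on average in the higher group, which 317 genes higher and 237 lower with Sora met. Counts were normalized by TMM and set to the mean depth of the libraries. The first 2 IDs in each direction are given, all 4 in the coding table. Their lack of overlap was set by the naming rule, and fold changes picked as the largest tend to be overstated.

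ENSRNOG00000050024 had 88.5, 153 and 189.7 normalized counts (lowest, median, highest) in Sora libraries, against 1.22, 27.8 and 62.2 in Nint libraries. Means were 146.7 ± 42.0 with Sora and 28.8 ± 24.2 with Nint (SD, n = 6 each), a log2 fold change of 2.33 (SE 0.68, 95% interval 0.93 to 3.72, adjusted p = 0.027). Every Sora library exceeded every Nint library, and Sora replicates 5 and 6 were the lowest of the Sora group at 88.5 and 106.4. TGFb had raised the gene, with 33.1 ± 36.8 (0 to 79.0) in TGFb alone and 3.95 ± 4.74 (0 to 10.3) in untreated slices at 72 (n = 6 each, log2 fold change 3.04, adjusted p = 0.00834). Over those untreated slices its log2 fold change was 5.19 with Sora (SE 0.86, adjusted p = 4.1e-05) and 2.86 with Nint (SE 0.87, adjusted p = 0.0134), so that here Sora lay farther from untreated slices than Nint. These fold changes rest on few counts in the untreated libraries. Pirf libraries held 84.1 ± 34.7, and Pirf against TGFb alone did not pass the test (log2 fold change 1.34, SE 0.67, adjusted p = 0.094). This call was lost with DESeq2 (adjusted p = 0.0601), against a fold of 1.2 (0.111) and with the TMM factor as a covariate (0.195), and without Sora replicate 1, 3 or 4 or Nint replicate 4 or 5 (0.0502 to 0.0628).

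ENSRNOG00000010253 had 48.2, 85.3 and 180.8 normalized counts in Sora libraries, against 17.2, 23.5 and 36.1 in Nint libraries. Means were 94.0 ± 45.0 with Sora and 23.9 ± 6.76 with Nint (n = 6 each), a log2 fold change of 1.97 (SE 0.36, 95% interval 1.23 to 2.70, adjusted p = 0.000891). Sora replicate 2 stood highest, and the other 5 Sora libraries lay at 48.2 to 88.2, still above all Nint libraries. The gene had been lowered by TGFb, with 38.9 ± 17.0 in TGFb alone and 100.7 ± 56.9 in untreated slices at 72 (log2 fold change -1.38, adjusted p = 0.00322). Set against those untreated slices, its log2 fold change was -0.10 with Sora (SE 0.34, adjusted p = 0.857) and -2.07 with Nint (SE 0.36, adjusted p = 5.25e-05). Pirf libraries held 27.7 ± 9.70 (n = 6), near the Nint mean and all below the lowest Sora library, and Pirf against TGFb alone did not pass the test (log2 fold change -0.47, SE 0.36, adjusted p = 0.285).

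ENSRNOG00000037085 had 2.74, 5.69 and 62.4 normalized counts in Sora libraries, against 90.3, 151.6 and 195.7 in Nint libraries. Means were 18.6 ± 23.7 with Sora and 149.8 ± 37.5 with Nint (n = 6 each), a log2 fold change of -3.00 (SE 0.58, 95% interval -4.18 to -1.83, adjusted p = 0.00125). Sora replicates 1 to 4 held 2.74 to 5.74, whereas replicates 5 and 6, low on the second component, held 62.4 and 29.4. Without the 3 libraries lowest on the second component the log2 fold change was -4.96, and without Sora replicate 5 alone it was -3.97. TGFb did not pass the test for this gene (log2 fold change 0.32, SE 0.52, adjusted p = 0.709), which averaged 104.2 ± 52.9 in TGFb alone and 83.2 ± 40.9 in untreated slices. Pirf libraries held 17.1 ± 4.55 (n = 6), all 6 above Sora replicates 1 to 4 and below Sora replicates 5 and 6.

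ENSRNOG00000004393 had 20.2, 62.1 and 134.3 normalized counts in Sora libraries, against 177.6, 275 and 609 in Nint libraries. Means were 71.9 ± 43.5 with Sora and 311 ± 158 with Nint (n = 6 each), a log2 fold change of -2.12 (SE 0.45, 95% interval -3.02 to -1.21, adjusted p = 0.00291). Sora replicates 5 and 6 were again nearest to Nint, at 134.3 and 110.2. Without the 3 libraries lowest on the second component the log2 fold change was -2.86. TGFb had raised the gene, with 178 ± 64.3 in TGFb alone and 70.4 ± 30.7 in untreated slices (log2 fold change 1.34, adjusted p = 0.0233). Over untreated slices the log2 fold change was 0.04 with Sora (SE 0.45, adjusted p = 0.967) and 2.15 with Nint (SE 0.45, adjusted p = 0.000452), and Pirf libraries held 28.7 ± 9.52.

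**Figure D3:**
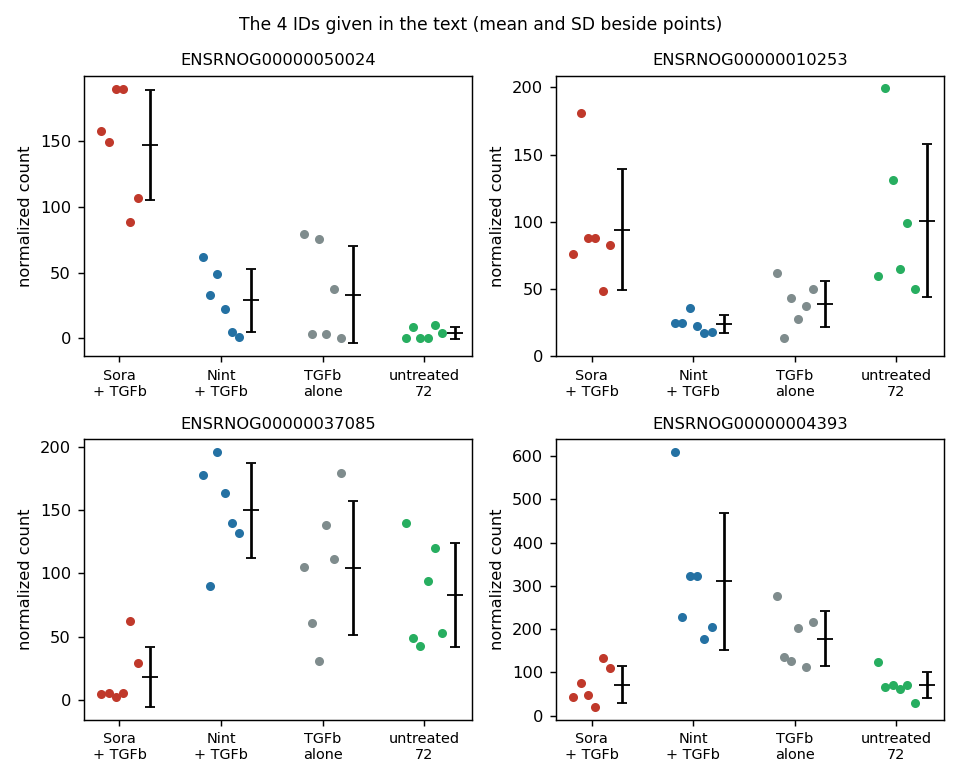
Normalized counts of the 4 IDs in each library of Sora with TGFb, Nint with TGFb, TGFb alone and untreated slices at 72 (6 points per group, in replicate order), with the mean and SD beside the points. The rule that chose the IDs required that the 6 Sora points not overlap the 6 Nint points. In both lower panels Sora replicates 5 and 6 are the highest of the Sora points.

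The genes that told Sora from Nint were then set against the response to TGFb itself, measured in TGFb-alone and untreated libraries at 72. Their levels do not enter the Sora and Nint contrast, but all 36 libraries share the gene filter, the scaling and the estimate of the spread. TGFb raised 2187 genes (14%) and lowered 1943 (12.4%). Of the genes it raised, 277 were lower with Sora than with Nint (12.7%, against 4.56% of all genes) and 41 higher (1.87%, against 6.43%). Of the genes it lowered, 322 were higher with Sora than with Nint (16.6%) and 17 lower (0.875%). Seen from the other side, 38.8% of the genes lower with Sora had been raised by TGFb and 32.0% of the genes higher with Sora had been lowered by it. With the Sora and Nint calls taken from a fit to their 12 libraries alone, these shares were 41.1% and 33.3%. The remaining 643 higher and 420 lower genes were not called for TGFb. They made up most of the genes that told the drugs apart, but their class is large, with 11514 of the 15644 tested genes. Of that class, 5.58% were higher and 3.65% lower with Sora, below the 6.43% and 4.56% of all genes. Without the 3 libraries lowest on the second component, 21.4% of the genes lower with Sora had been raised by TGFb (14.3% of all genes). Of the genes higher with Sora in that fit, 23.7% had been lowered by TGFb (12.6% of all genes). With the TMM factor as a covariate, which ties the comparisons together through 1 shared coefficient, these shares were 81.3% of 235 genes and 47.7% of 220, where TGFb then raised 17.3% and lowered 15.5% of all genes.

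These shares were also counted by the size of the TGFb change. Among the 475 raised at least 2-fold, 90 were lower with Sora than with Nint (18.9%) and 7 higher, and among the 1712 raised by less, 187 were lower (10.9%) and 34 higher. Among the 566 lowered at least 2-fold, 77 were higher with Sora than with Nint (13.6%) and 1 lower, and among the 1377 lowered by less, 245 were higher (17.8%) and 16 lower. The median log2 fold change of Sora over Nint was -0.32 for the 475 genes and 0.28 for the 566, where that of all tested genes was 0.0234.

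Library by library, the mean level of the 475 strongly raised genes over untreated slices was 0.911, 1.04 and 1.16 (lowest, median, highest, log2 scale) with Sora and 1.16, 1.34 and 1.41 with Nint. Means were 1.04 ± 0.107 with Sora and 1.33 ± 0.0881 with Nint (SD, n = 6 each), and 1.60 ± 0.162 in the TGFb-alone libraries that chose the genes. Sora replicate 1 and Nint replicate 1 met at 1.16, and otherwise the groups did not overlap. For the 566 strongly lowered genes the levels were -1.25, -0.871 and -0.737 with Sora and -1.35, -1.20 and -1.11 with Nint, with means of -0.943 ± 0.227 with Sora and -1.22 ± 0.0796 with Nint, and -1.47 ± 0.145 in TGFb alone. Sora replicates 3 and 4, at -1.18 and -1.25, lay among the Nint libraries here, and the other 4 Sora libraries lay nearer to untreated slices than any Nint library. Both drug groups thus remained far from untreated slices, whose libraries lay at -0.173 to 0.215 for raised and -0.113 to 0.118 for lowered genes.

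**Figure D4:**
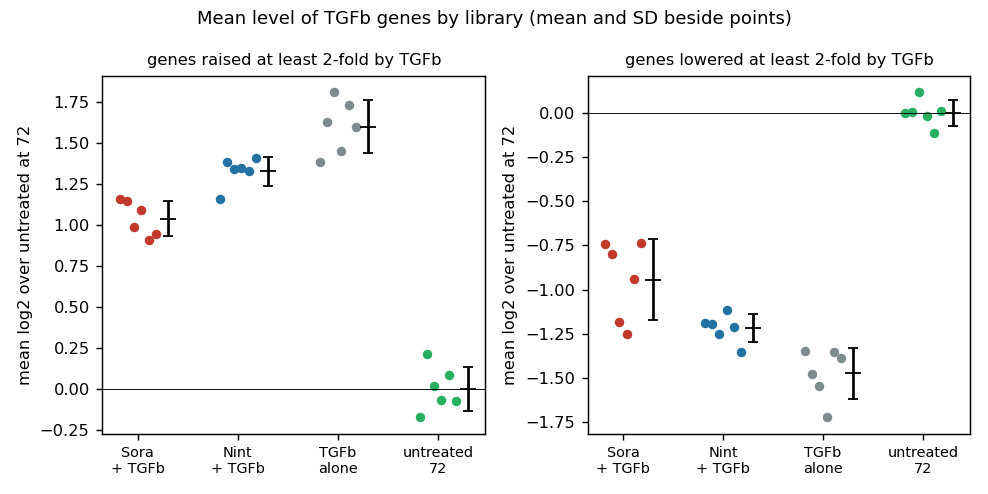
Mean log2 level over untreated slices at 72 of the 475 genes raised (left) and the 566 lowered (right) at least 2-fold by TGFb, 1 point per library, with the mean and SD of each group of 6 beside the points. Sora libraries lie nearer to 0 than Nint libraries for the raised genes apart from 1 pair at 1.16, and for the lowered genes apart from Sora replicates 3 and 4; TGFb-alone and untreated libraries chose the genes.

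Pirf was measured in 6 further libraries, which share the fit with those of Sora and Nint. Against TGFb alone, Pirf raised 3926 genes (25.1%) and lowered 4135 (26.4%). Of the genes lower with Sora than with Nint, 513 (71.8%) had been lowered by Pirf and 11 (1.54%) raised. Of the genes higher with Sora than with Nint, 664 (66.0%) had been raised by Pirf and 38 (3.78%) lowered. As shares of the Pirf lists, 12.4% of the genes Pirf lowered were lower with Sora than with Nint and 16.9% of those it raised were higher. Of the 729 genes that Pirf raised at least 2-fold, 89 were higher with Sora than with Nint (12.2%) and 0 lower. Of the 3197 it raised by less, 575 were higher (17.99%) and 11 lower. Of the 888 it lowered at least 2-fold, 149 were lower (16.8%) and 8 higher. Of the 3247 it lowered by less, 364 were lower (11.2%) and 30 higher. Over all genes 6.43% were higher and 4.56% lower. The share was thus smaller among the strongly raised genes and larger among the strongly lowered ones. The TGFb and Pirf comparisons share the TGFb-alone libraries, so these are not 2 independent pictures.

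Levels of the genes that Pirf changed at least 2-fold were also set out by library. For the 888 genes, the mean log2 level over TGFb alone was -0.643, -0.464 and -0.0829 (lowest, median, highest) with Sora and -0.261, -0.0903 and 0.0246 with Nint, and for the Pirf libraries that chose them it was -1.63 to -1.38. For the 729 genes it was -0.0364, 0.461 and 1.32 with Sora and -0.196, -0.00303 and 0.435 with Nint, and 1.34 to 2.11 with Pirf. The TGFb-alone libraries, which also chose these genes, lay at -0.304 to 0.168 for the 888 genes and -0.456 to 0.688 for the 729. The Sora and Nint groups overlapped on both measures. Sora libraries spread more widely (SD 0.203 for the 888 genes and 0.493 for the 729) than the Nint libraries (SD 0.103 and 0.222 in the same order). TMM factors averaged higher with Sora than with Nint, a difference that did not pass after adjustment as given above. Among Sora libraries, levels for the 888 genes fell as the factor rose, from -0.0829 in replicate 5 (factor 0.968) to -0.643 in replicate 3 (1.07). For the 729 genes they did not run in the order of the factor, at 0.284 in replicate 5, 1.32 in replicate 2 (factor 1.07) and -0.0364 in replicate 3. The part of the TMM factors in these levels was not tested. With the factor as a covariate, 43.2% of the 220 genes higher with Sora had been raised by Pirf (16% of all genes) and 73.2% of the 235 lower with Sora had been lowered by it (19.5% of all genes). With the share of counts outside the coding table as a covariate the calls were 980 higher and 827 lower. Pirf had raised 69.5% of these higher genes (26.8% of all genes) and lowered 75.5% of the lower ones (26.6% of all genes).

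**Figure D5:**
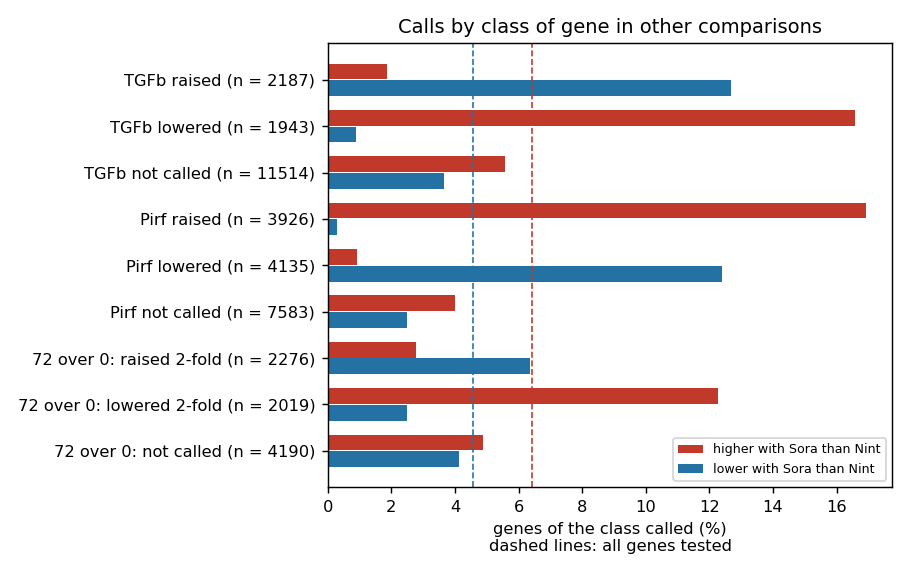
Percentage of the genes of a class that were called higher (red) or lower (blue) with Sora than with Nint, for classes set by TGFb against untreated slices at 72, by Pirf against TGFb alone and by untreated slices at 72 against 0; dashed lines give the percentages over all tested genes, 6.43% and 4.56%. Genes raised by TGFb or lowered by Pirf lean to blue, and genes lowered by TGFb, raised by Pirf or lowered in culture lean to red.

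Culture alone also changes the lung slice, and 2276 genes were raised (14.5%) and 2019 lowered (12.9%) at least 2-fold in untreated slices at 72 against 0. Of the 2019 genes lowered in culture, 248 were higher with Sora than with Nint (12.3%) and 50 lower (2.48%). Of the 2276 raised in culture, 63 were higher (2.77%) and 145 lower (6.37%). The mean level of the lowered genes over untreated slices at 72 was -0.0353, 0.0425 and 0.0496 (log2 scale) with Sora and -0.129, -0.116 and -0.0990 with Nint. All 6 Sora libraries lay above all 6 Nint libraries on this measure, with means of 0.0261 ± 0.0334 with Sora and -0.115 ± 0.0143 with Nint (n = 6 each) and -0.0837 ± 0.0447 in TGFb alone. The difference was small beside the change over culture time, since slices at 0 stood at 1.80 ± 0.0935 on the same scale. For the genes raised in culture the drug groups overlapped, at -0.104 to 0.0183 with Sora and -0.0296 to 0.0908 with Nint.

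Comparisons of each drug with TGFb alone are given side by side for the same genes, with no overlap drawn between them because they share the TGFb-alone libraries. For the 277 TGFb-raised genes that were lower with Sora than with Nint, the median log2 fold change against TGFb alone was -0.48 with Sora and -0.06 with Nint, and over untreated slices 0.12 with Sora and 0.55 with Nint. For the 322 TGFb-lowered genes that were higher with Sora than with Nint, the medians against TGFb alone were 0.36 with Sora and -0.11 with Nint, and over untreated slices -0.21 with Sora and -0.78 with Nint. For the 643 genes higher with Sora that TGFb did not call, they were 0.21 with Sora and -0.12 with Nint against TGFb alone. For the 420 genes lower with Sora that TGFb did not call, they were -0.36 with Sora and 0.05 with Nint. These genes were chosen by the Sora and Nint libraries themselves, so their medians describe the lists and test nothing.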

How the data were processed

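Total RNA libraries were made with a stranded kit after removal of ribosomal RNA, per the labels' protocols. RSEM, edgeR and the genome build Rnor_6.0 are named in the submitters' processing notes, while neither aligner, annotation release nor strand setting is stated there. The authors deposited expected counts per gene for 32883 IDs, unscaled, of which 7086 had a total of 0. RSEM can split reads among near-identical genes, which makes the counts of such genes uncertain. The authors also deposited log2 CPM values for genes described as expressed and coding, which equalled edgeR's TMM-scaled log2 CPM of the counts to within 4.97e-14. That table was used only to mark genes.

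Expected counts were rounded, and edgeR 4.0.16 (R 4.3.3) was used for all main tests. filterByExpr kept 15644 genes, and a quasi-likelihood model with TMM factors and a mean per group was fitted to all 36 libraries. The contrast was Sora minus Nint, with Benjamini-Hochberg adjustment over all genes. SE is the absolute log2 fold change over the root of F, and intervals are 95%, per gene and unadjusted. Components used log2 CPM with a prior count of 2. DESeq2 1.42.0 and limma 3.58.1 were alternatives. On simulated data for 15644 genes, 70 of 100 genes changed 1.5-fold and 84 of 100 changed 2-fold were recovered, with 10 false calls among the unchanged genes. Each gene was drawn on its own from the fitted model, and only genes above a minimum mean count were changed. Variation that many genes share between libraries was not simulated, so these rates may not carry over to the real libraries. Measures of libraries were tested by exact permutation, two-sided, with 6 in each group. No pair of libraries within a group agreed within sampling noise.

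The groups, lists and tests were chosen with earlier results of these data known. The IDs could not be named, so 41 gene lists, promoter motifs and marker checks were not run. The naming rule (called, no overlap, mean count of at least 50, largest fold change) was applied to IDs, 2 per direction.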

Additional observations from a re-analysis of the deposited data

Results flagged for a closer look

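Dixon's criterion was applied to 62 groups of 6 values and marked 7, where chance marks about 1 in 20. ENSRNOG00000004393 was marked in the Nint group, where replicate 1 held 609 normalized counts and the next library 324. ENSRNOG00000010253 was marked in the Sora group, where replicate 2 held 180.8 and the next library 88.2. ENSRNOG00000037085 was marked in the Pirf group, where replicate 3 held 26 and the next library 16.6. ENSRNOG00000050024 was marked in untreated slices at 0, where replicate 4 held 3.48 and the other 5 held 0.

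Nint replicate 1 was marked for its level of the genes raised at least 2-fold by TGFb, at 1.16 over untreated slices on the log2 scale, where the other Nint libraries lay at 1.33 to 1.41. Nint replicate 5 was marked on the first principal component of the 12 libraries, at 2.09, where the other Nint libraries scored -30.6 to -22.5. The same library was marked for its mean distance to the other Nint libraries, 0.635, where the next highest was 0.562.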

How the results depend on the processing

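The direction of the difference was kept by each of the 4 IDs given, and no gene called in the main fit was called in the opposite direction under any of the 26 alternatives. These refit the same libraries or leave out 1 to 3 of them, so that an opposite call was hardly possible. Of the main calls, 10.8% were kept against a fold of 1.2 and 18.8% with the TMM factor as a covariate. Leaving out 1 library kept 52.5% to 96.6%. The calls of ENSRNOG00000010253, ENSRNOG00000037085 and ENSRNOG00000004393 held under all 26, and that of ENSRNOG00000050024 under 18. Numbers of genes did not hold. The 1720 calls became 1133 without a filter on low counts, 186 against a fold of 1.2, 455 with the TMM factor as a covariate and 3103 without the 3 libraries lowest on the second component. Genes higher with Sora (1006) became 2148, 131, 220 and 1580 on total counts, against the fold, with the TMM covariate and without the 3 libraries. Genes lower with Sora (714) became 432 on total counts, 452 without a filter, 55 against the fold, 235 with the TMM covariate, 1165 with DESeq2 and 1523 without the 3 libraries. Leaving out 1 library at a time gave 942 to 2819 calls, 570 to 1470 higher and 348 to 1349 lower. The share of genes lower with Sora that TGFb had raised (38.8%) was 31.5% on total counts, 33.9% with the replicate block, 81.3% with the TMM covariate and 21.4% without the 3 libraries, and 28.5% to 49.1% leaving out 1 library. The share of genes higher with Sora that TGFb had lowered (32.0%) was 47.7% with the TMM covariate and 23.7% without the 3 libraries, and 27.2% to 42.1% leaving out 1 library. For Pirf the share of lower genes that it lowered (71.8%) was 75.5% with the share outside the coding table as a covariate and 65.8% without the 3 libraries, and 68.7% to 76.7% leaving out 1 library. The share of higher genes that it raised (66.0%) was 72.9% on total counts, 69.5% and 43.2% with the 2 covariates (share outside the coding table, TMM factor) and 61.9% without the 3 libraries, and 62.4% to 70.5% leaving out 1 library. Shares over all genes moved with the setting too. In the main fit TGFb raised 14% and lowered 12.4% of all genes, and Pirf raised 25.1% and lowered 26.4%. On total counts these were 8.71%, 16.3%, 38.2% and 16.6% in the same order, and with the TMM covariate 17.3%, 15.5%, 16% and 19.5%. Without the 3 libraries they were 14.3%, 12.6%, 25.2% and 26.6%. With the share outside the coding table as a covariate they were 15.3%, 12.8%, 26.8% and 26.6%. A share above thus has to be read beside the share over all genes of its own setting. The causes of these shifts were not tested. The covariate for the share outside the coding table, the omission of the 3 libraries, the TGFb shares with the TMM covariate and all settings for the Pirf shares were chosen after seeing the data.

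The main fit took no pairs, because the labels do not say what a replicate number shares. Same-numbered Sora and Nint libraries did not deviate together (r of -0.121 to 0.273, with 1 of 6 pairs over 0.1, and 1 of the 6 Sora and 0 of the 6 Nint libraries most like its own number). That check did not cover the other groups of the fit. With the replicate block 2047 genes were called, 1128 higher and 919 lower. By the well code, Sora wells lay in plate columns 1 to 3 and Nint wells in columns 1, 2 and 4. Plate column and drug can thus be told apart only in part. With the plate column as a factor 1414 genes were called, and 673 higher and 442 lower calls of the main fit were kept (64.8%). Libraries thinned to one common total gave 1491 calls. Alternatives for the gene lists were not run, since the IDs have no names.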
